A study of Homo sapiens with 9 samples.

Results

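EPAS1, VEGFA, NDRG1 and DDIT4 are 4 hypoxia-linked genes of 14884 genes measured in BT-549 cells, an established line from a human breast tumour of the triple-negative class. They were taken by gene symbol, and the symbol of each feature was the same in the platform annotation and through its gene ID in RefSeq. Each had 1 array feature, so no choice between features arose. The genes were chosen by differences between mock, negative control and mimic signals already seen on these same arrays. Their values are therefore given as a description, with no test.

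The 9 samples were BT-549 cells in RPMI-1640 medium with serum, all exposed to the lipid Lipofectamine RNAiMAX. The 3 mock samples received the lipid without RNA, the 3 negative control samples a non-specific small RNA at 50 nM, and the 3 mimic samples a mature miR-150-5p mimic at 50 nM. Medium was replaced at 24 h, and total RNA was taken at 72 h and read on a whole-transcript array, as 1 log2 signal per feature. BT-549 is a single tumour line, and no oxygen level is given in the labels. Nothing in them tells whether replicates were separate cultures, so the p-values below rest on a spread that may be technical. The number of arrays limits the precision.

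Hypoxia-inducible factors (HIFs) are transcription factors made of an oxygen-sensitive alpha subunit and the stable partner ARNT. In oxygen, prolyl hydroxylases (EGLN proteins) mark the alpha subunit for the VHL ubiquitin ligase. In low oxygen it escapes, binds DNA at a core of letters ACGTG or GCGTG, and raises genes of glycolysis, blood vessel growth and stress. EPAS1 encodes HIF-2alpha, 1 of the alpha subunits, and its activity is set largely by protein stability, which an RNA array does not read. VEGFA encodes the main growth factor of blood vessels, NDRG1 a stress-responsive protein raised by HIF and linked to differentiation and reduced spread of tumours, and DDIT4 (REDD1) an inhibitor of the growth kinase complex mTORC1.

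Markers of the line were read as a check on the cells. All 4 measured mesenchymal markers, from 7.30 to 8.76, were above the array medians, which lay between 2.43 and 2.48. VIM averaged 8.76 and AXL 8.25 over the 9 arrays. ESR1 and PGR, the hormone receptors that such tumours lack, averaged 2.13 and 1.78. All 3 measured endothelial markers averaged between 2.09 and 2.37 and both leukocyte markers between 1.79 and 2.23, at or under the array medians. Epithelial markers ranged from 1.88 for EPCAM to 2.65 for KRT19. Across all features, not independent of one another, pairs of arrays had a Pearson's r of 0.981 to 0.989 within groups and of 0.977 to 0.986 between them.

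The stretch just before the start of EPAS1, DDIT4 and 3 genes described further on is shown because it is where the HIF core letters are sought. LDHA is the textbook HIF-driven gene of lactate production, and CA12 and MMP14 are the listed genes that fell in both comparisons of the mimic. The sequences are the 250 bases before a start of each gene, 5′ to 3′ on the gene's own strand, from RefSeq on GRCh38.p14. LDHA had another start, whose window is not shown. Capitals mark ACGTG or GCGTG, read on either strand, so CACGT and CACGC on the printed strand count as matches, and CACGTG counts once on each strand.
EPAS1, chr2:46297157-46297406, plus strand: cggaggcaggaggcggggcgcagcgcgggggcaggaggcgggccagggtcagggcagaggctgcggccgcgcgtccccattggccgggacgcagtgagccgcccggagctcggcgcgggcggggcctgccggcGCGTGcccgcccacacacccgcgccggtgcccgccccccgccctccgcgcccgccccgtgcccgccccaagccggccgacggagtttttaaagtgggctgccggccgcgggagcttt
DDIT4, chr10:72273674-72273923, plus strand: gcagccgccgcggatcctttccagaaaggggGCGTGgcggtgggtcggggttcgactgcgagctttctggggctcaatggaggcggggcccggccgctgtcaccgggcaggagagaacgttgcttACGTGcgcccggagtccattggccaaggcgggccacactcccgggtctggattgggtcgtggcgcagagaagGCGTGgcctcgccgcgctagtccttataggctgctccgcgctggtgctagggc
CA12, chr15:63381847-63382096, minus strand: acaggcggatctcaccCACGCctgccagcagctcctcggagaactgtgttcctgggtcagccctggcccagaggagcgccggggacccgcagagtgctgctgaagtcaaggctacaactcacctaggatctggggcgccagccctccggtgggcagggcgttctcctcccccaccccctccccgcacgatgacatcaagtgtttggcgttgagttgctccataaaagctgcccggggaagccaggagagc
MMP14, chr14:22836335-22836584, plus strand: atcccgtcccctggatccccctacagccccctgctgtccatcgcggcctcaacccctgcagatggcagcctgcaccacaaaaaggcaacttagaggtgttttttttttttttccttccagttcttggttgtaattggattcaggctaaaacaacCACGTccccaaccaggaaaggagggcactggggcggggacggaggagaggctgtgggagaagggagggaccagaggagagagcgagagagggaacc
LDHA, chr11:18394313-18394562, plus strand: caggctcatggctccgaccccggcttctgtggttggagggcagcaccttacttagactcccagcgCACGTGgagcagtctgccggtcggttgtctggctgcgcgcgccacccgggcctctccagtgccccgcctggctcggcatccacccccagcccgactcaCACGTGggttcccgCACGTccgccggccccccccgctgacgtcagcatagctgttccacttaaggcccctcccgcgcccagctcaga

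EPAS1 thus held 1 GCGTG and no ACGTG in this window, and DDIT4 held 1 ACGTG, ending 121 bases before the start, with 2 GCGTG. The LDHA window shown holds ACGTG in 3 places. Of all 27305 genes with such a sequence, 21.7% held ACGTG, 36.2% GCGTG and 47.4% either in the 250 bases. A gene with several starts was counted as holding the letters if any of its windows did, here and in the counts further on. The median share of G and C there was 59.2%, against 69.2% in the listed pathway genes described below. VEGFA and NDRG1 are named only. A match is a description of letters, not of binding.

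EPAS1 was the member that stood lowest in the mimic arrays relative to both controls. In replicate order, its log2 signal was 7.97, 7.76 and 8.13 in mock, 7.76, 7.23 and 7.91 in negative control and 6.43, 6.65 and 6.34 in mimic samples. Every mimic array lay below every control array, with a gap of 0.58 to the lowest negative control array and of 1.10 to the lowest mock array, whereas mock and negative control overlapped. The group means were 7.95 ± 0.19 (SD, n = 3) in mock, 7.63 ± 0.36 in negative control and 6.47 ± 0.16 in mimic. The difference of the mimic was -1.16 ± 0.17 (SE) log2 units from the negative control (2.23-fold lower) and -1.48 ± 0.17 from mock (2.79-fold lower). The negative control differed from mock by -0.32 ± 0.17, with overlapping groups. Between same-numbered arrays the differences were -0.21, -0.53 and -0.23. With the replicate number as a block in a fit on these 6 arrays, the SE was 0.10. No label pairs these arrays, so nothing is read from the signs or from this SE. The same differences were -0.40, -0.15 and -0.58 for VEGFA, 0.20, 0.30 and -0.34 for NDRG1 and 0.47, 0.51 and 0.11 for DDIT4. For EPAS1, negative control 2, at 7.23, was the lowest control array. Without it the difference between negative control and mock was the smallest of those with 1 array left out, at -0.12, and the mimic was at -1.36 against the negative control. In bulk RNA, fewer cells that express a gene and less RNA per cell cannot be told apart.

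VEGFA, the secreted ligand of the group, formed 3 steps. It read 5.53, 5.27 and 5.70 on mock, 5.13, 5.12 and 5.13 on negative control and 4.89, 4.87 and 4.65 on mimic arrays. No groups overlapped, and the order was mock, negative control, mimic. The means were 5.50 ± 0.22, 5.12 ± 0.0024 and 4.80 ± 0.13 (SD, n = 3 each). The mimic was at -0.32 ± 0.12 (SE) log2 units from the negative control (1.25-fold lower) and -0.70 ± 0.12 from mock (1.62-fold lower), and the negative control at -0.38 ± 0.12 from mock (1.30-fold lower). The negative control thus lay near the middle between mock and mimic. The narrow spread of VEGFA in the negative control includes an exact tie, since arrays 1 and 3 had the same value to 5 decimals. Such ties within a group were present for 34.6% of all genes tested.

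NDRG1 separated the mimic from both controls and did not separate the controls. It read 4.08, 4.23 and 4.41 on mock, 4.28, 4.53 and 4.08 on negative control and 3.68, 3.65 and 3.40 on mimic arrays. All mimic arrays lay below the lowest array of each control, with a gap of 0.40, and the control groups overlapped. The means were 4.24 ± 0.17, 4.29 ± 0.23 and 3.58 ± 0.15 (SD, n = 3 each). The mimic was at -0.72 ± 0.14 (SE) log2 units from the negative control (1.64-fold lower) and -0.66 ± 0.14 from mock (1.58-fold lower), and the negative control at 0.05 ± 0.14 from mock.

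DDIT4, the mTORC1 inhibitor, did not share the low mimic values. It read 8.28, 8.29 and 8.73 on mock, 8.76, 8.80 and 8.85 on negative control and 8.84, 8.88 and 8.60 on mimic arrays. Mimic arrays overlapped both control groups. The negative control arrays lay above the mock arrays by a gap of only 0.026, set by mock 3, the highest mock array. The means were 8.44 ± 0.26, 8.80 ± 0.044 and 8.77 ± 0.15 (SD, n = 3 each). The mimic was at -0.03 ± 0.13 (SE) log2 units from the negative control and 0.34 ± 0.13 from mock (1.26-fold higher), and the negative control at 0.37 ± 0.13 from mock (1.29-fold higher). Without mock 3 these differences from mock were 0.49 and 0.52.

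**Figure D1:**
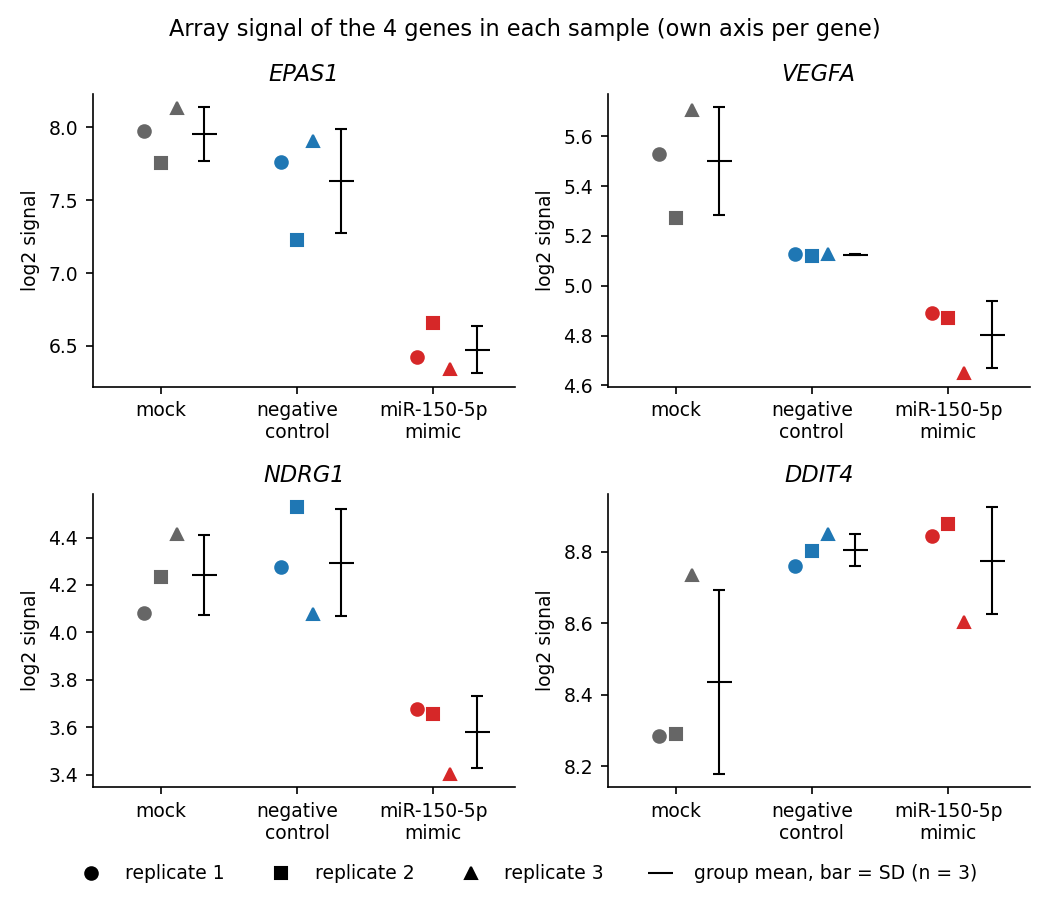
Log2 array signal (vertical axes, 1 per gene and not comparable between genes) of EPAS1, VEGFA, NDRG1 and DDIT4 in mock, negative control and mimic samples. Symbols are single arrays, their shape giving the replicate, and the black marks give the group mean with the SD (n = 3); mimic arrays lie below all control arrays for EPAS1, VEGFA and NDRG1, and DDIT4 has mock 1 and 2 lowest, at 8.28 and 8.29.

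In the mimic, 3 of the 4 genes had all arrays below those of the negative control, as 8.3% of all genes tested did, and the same 3 had all arrays below those of mock, as 8.52% of all genes did. These shares are the background to a count that the choice of the genes fixed, and nothing is read from it. Between negative control and mock, VEGFA was apart downward (5.78% of all genes) and DDIT4 upward (6.21% of all genes). The comparisons share arrays, so the values of a gene in them are not independent of each other.

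**Figure D2:**
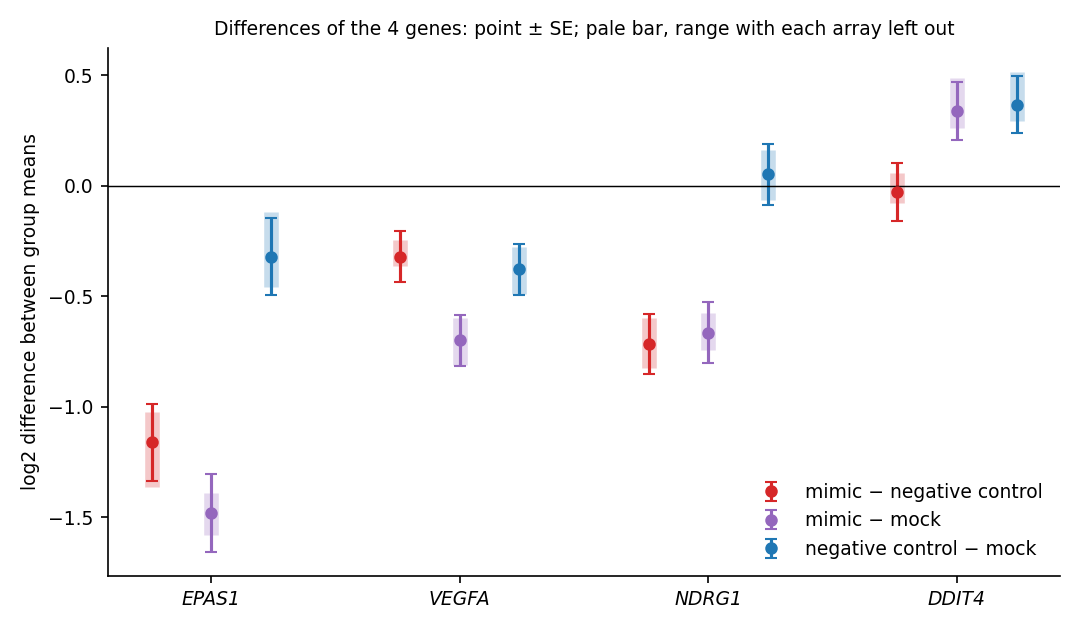
Differences in log2 signal between group means (vertical axis) for EPAS1, VEGFA, NDRG1 and DDIT4, in the 3 comparisons given by colour. Points carry the SE from the fit to all genes (n = 3 arrays per group), and pale bars span the values with each of the 9 arrays left out in turn. EPAS1 has the lowest values of the 4 in the mimic, at -1.16 and -1.48, and NDRG1 has near-equal differences from both controls, at -0.72 and -0.66.

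The 4 genes also differed in how far their profiles resembled each other. As a measure of likeness, each gene's own mean was subtracted, and the root mean square difference between profiles was taken over the 9 arrays. VEGFA and NDRG1 were closest, at 0.24 log2 units. EPAS1 was 0.42 from VEGFA and 0.44 from NDRG1, whereas EPAS1 and DDIT4 were farthest apart, at 0.77. EPAS1 varied most around its own mean, by 0.67, against 0.36 for NDRG1, 0.31 for VEGFA and 0.22 for DDIT4. The distance depends on this spread as well as on the pattern. Its median to other genes was 0.68 from EPAS1, 0.38 from NDRG1, 0.34 from VEGFA and 0.26 from DDIT4.

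Among 12987 other genes, the 4 with the pattern most like that of EPAS1 were IGFBP5, SNAI2, DSEL and CA12, at 0.19 to 0.20 log2 units from it, against a median of 0.68 over these genes. IGFBP5 binds insulin-like growth factors. It averaged 6.61 ± 0.25 in mock, 6.24 ± 0.13 in negative control and 4.86 ± 0.15 in mimic (SD, n = 3 each). SNAI2, a transcription factor of epithelial-mesenchymal transition, averaged 7.40 ± 0.13, 7.04 ± 0.28 and 5.68 ± 0.14 (SD) in the same order. DSEL, of dermatan sulfate synthesis, averaged 7.36 ± 0.13, 6.91 ± 0.28 and 5.97 ± 0.11 (SD). Like EPAS1, all 4 had their lowest arrays in the mimic, and CA12 also belongs to the hypoxia lists below. Nothing about shared function or control follows from likeness over 9 arrays.

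The 4 nearest to VEGFA were UBE2H, SETD7, FBN1 and TXNRD1, at 0.054 to 0.087 log2 units. UBE2H, a ubiquitin-conjugating enzyme, averaged 6.22 ± 0.22 in mock, 5.91 ± 0.027 in negative control and 5.62 ± 0.076 in mimic (SD), stepping down as VEGFA did. FBN1, fibrillin of elastic fibres, averaged 6.75 ± 0.29, 6.42 ± 0.071 and 6.14 ± 0.039 (SD). The 4 nearest to NDRG1 were DSC2, PLPP1, PHYH and RNF170, at 0.13 to 0.15 log2 units. DSC2, a desmosomal cadherin, averaged 4.91 ± 0.069, 5.00 ± 0.096 and 4.41 ± 0.21 (SD). The 4 nearest to DDIT4 were DPH1, EMC10, SCYL3 and CRAT, at 0.059 to 0.072 log2 units. DPH1, of diphthamide synthesis, averaged 5.68 ± 0.22, 6.06 ± 0.088 and 5.97 ± 0.10 (SD), with mock lowest as for DDIT4.

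**Figure D3:**
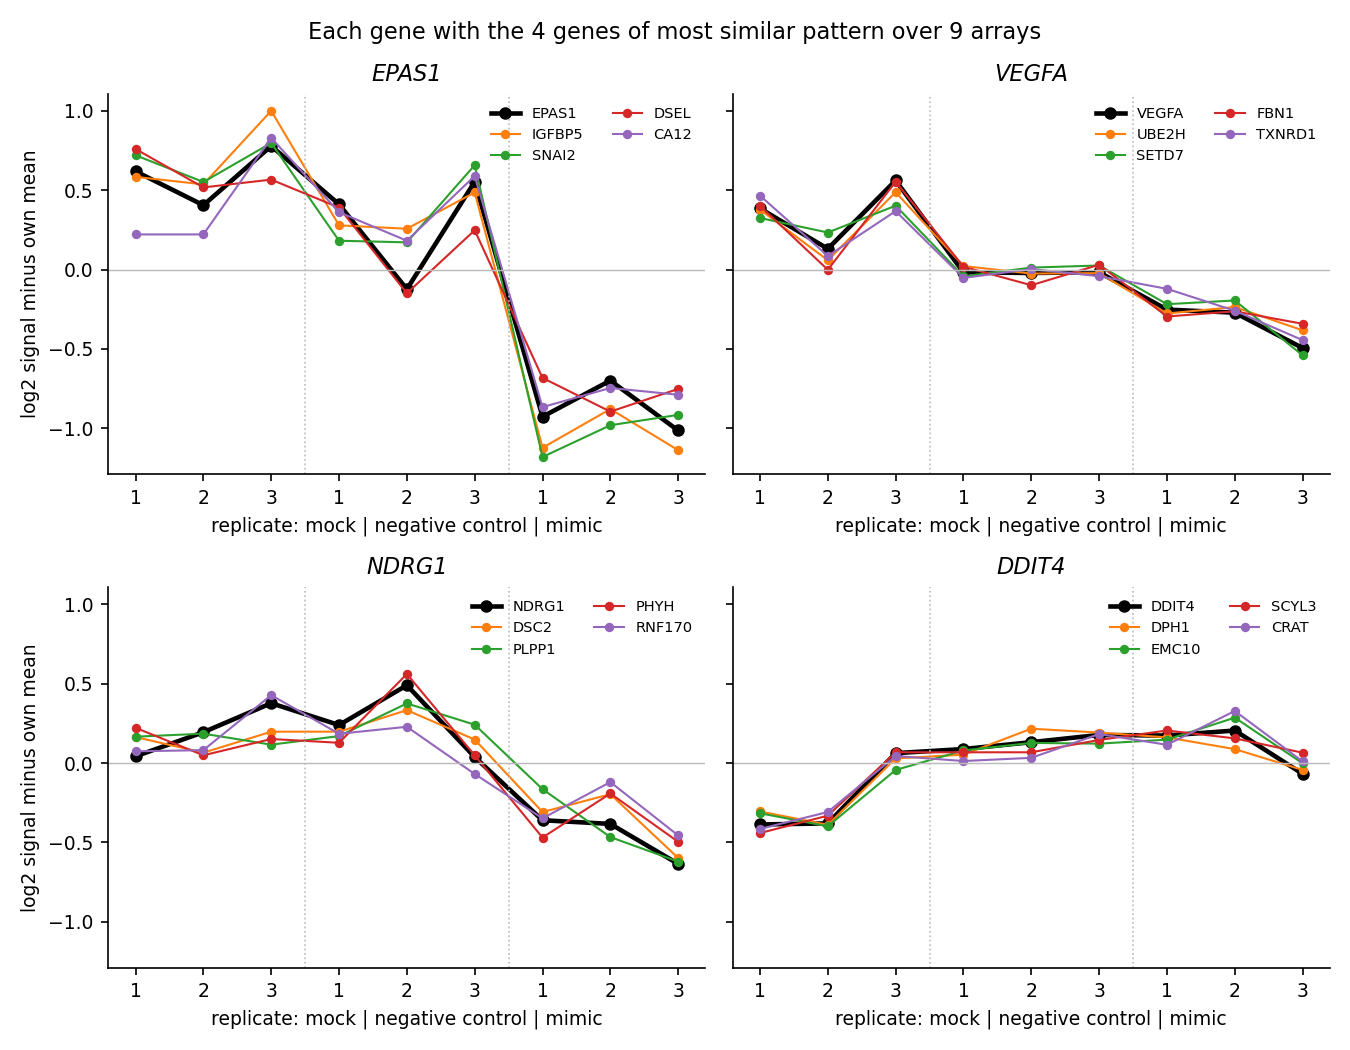
Log2 signal minus each gene's own mean over the 9 arrays (vertical axes) for EPAS1, VEGFA, NDRG1 and DDIT4, in black, with the 4 genes of the most similar pattern in colour. The horizontal axes give the 3 replicates of mock, negative control and mimic, and lines only join the values of 1 gene, since replicates have no order. The EPAS1 set drops in the mimic arrays and EPAS1 and DSEL are lowest among controls on negative control 2, and the DDIT4 set is lowest on mock 1 and 2.

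Genes around the 4 members were taken from 8 lists of the HIF pathway and its outputs. Of their 121 genes other than the members, 74 had a feature with a single symbol. The others, among them HIF1A, VHL and SLC2A1, are not analysed here. Of the 74, 11 averaged no more than the highest array median. The verbs rose, fell and changed are used below for an adjusted p under 0.05 in limma, with Benjamini-Hochberg adjustment over all 14884 genes.

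Against the negative control, CA12, MMP14 and KLF10 fell and SESN2 rose in the mimic, so 4 of 74 changed (5.41%), beside 3.18% of all genes (1.42% fell, 1.76% rose). Against mock, CA12, MMP14, NRP2 and DDIT3 fell and none rose, again 4 of 74, beside 3.9% of all genes (1.62% fell, 2.28% rose). In the negative control against mock, DDIT3 alone fell, 1 of 74 (1.35%), beside 0.645% of all genes (0.477% fell, 0.168% rose). The medians over the 74 genes were 0.03, -0.03 and -0.02 log2 units in the same order, against -0.0044, 0.00035 and 0.0076 over all genes. At an unadjusted p under 0.05 were 20, 18 and 11 of the 74 (27.0%, 24.3% and 14.9%), beside 16%, 17.5% and 11% of all genes. The latter shares are also the background for the unadjusted counts of single lists below. Of the 63 listed genes averaging above the highest array median, 6.35%, 6.35% and 1.59% changed, beside 4.60%, 5.72% and 0.95% of all such genes. Their unadjusted shares were 30.2%, 28.6% and 17.5%, beside 21.7%, 24.2% and 14.8%. The lists were chosen with earlier results of these data known, so nothing is read from the higher shares.

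The partners of EPAS1 showed no call. The list of HIF subunits, partners and coactivators had 5 measured members, and 0 of 5 passed in any comparison by limma, with no unadjusted p under 0.05 either. ARNT, the subunit that pairs with HIF-2alpha, averaged 7.73 ± 0.15, 7.69 ± 0.047 and 7.63 ± 0.054 in mock, negative control and mimic (SD, n = 3 each). Its difference between mimic and mock was -0.11 ± 0.089 (SE, adjusted p = 0.62), with a 95% interval from -0.31 to 0.09. The coactivators EP300 (-0.40 ± 0.22, adjusted p = 0.39) and CREBBP (-0.14 ± 0.26, adjusted p = 0.86) did not pass in the mimic against mock, nor did BMAL1 (-0.22 ± 0.18), a relative of ARNT in the clock. In the negative control against mock EP300, CREBBP and BMAL1 were at -0.41 ± 0.22, -0.30 ± 0.26 and -0.29 ± 0.18. In the mimic against the negative control they were at 0.0063 ± 0.22, 0.16 ± 0.26 and 0.07 ± 0.18. ARNT2 averaged 2.02, under the array medians.

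The oxygen-sensing genes had 5 measured members, and limma called 0 of 5 in any comparison. At an unadjusted p under 0.05 were 0 in the mimic against the negative control, 3 in the mimic against mock and 1 in the negative control against mock. EGLN1, the main prolyl hydroxylase, averaged 7.12 ± 0.11 in mock, 6.74 ± 0.17 in negative control and 6.74 ± 0.071 in mimic (SD). It was at -0.38 ± 0.10 (SE) against mock in both the mimic (adjusted p = 0.075) and the negative control (adjusted p = 0.18), and at 0.00020 ± 0.10 in the mimic against the negative control, with a 95% interval from -0.23 to 0.23. CUL2, the scaffold of the VHL ligase, had a difference of 0.21 ± 0.070 between mimic and mock (adjusted p = 0.16). SIAH2, a ligase that degrades prolyl hydroxylases, was at -0.26 ± 0.10 (adjusted p = 0.22), and its relative SIAH1 at -0.02 ± 0.11. EGLN3, itself a hypoxia-induced hydroxylase, averaged 2.28, under the array medians.

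Of 13 measured genes of VEGF and other angiogenic signals, 0 passed in the mimic against the negative control (4 at an unadjusted p under 0.05 in limma), and 1, NRP2, fell against mock (3 at an unadjusted p under 0.05). In the negative control against mock 0 passed (2 at an unadjusted p under 0.05). NRP2 is a co-receptor of VEGF family ligands. It read 5.08, 4.82 and 4.99 on mock, 4.64, 4.62 and 4.62 on negative control and 4.60, 4.05 and 4.29 on mimic arrays. Like VEGFA, NRP2 formed 3 steps that did not overlap, with differences of -0.65 ± 0.13 (SE) from mock (adjusted p = 0.030) and -0.31 ± 0.13 from the negative control (adjusted p = 0.28) in the mimic. That call was lost without mock 1 or 3, negative control 1 or 3, or mimic 2 or 3, with adjusted p up to 0.11, and in a fit on the 6 arrays compared (adjusted p = 0.082). The other co-receptor, NRP1, was at -0.43 ± 0.11 against mock (adjusted p = 0.063, but 0.037 without negative control 2 and 0.036 after a second quantile normalization) and the lymphatic ligand VEGFC at -0.41 ± 0.12 (adjusted p = 0.089). The ligand VEGFB was at -0.10 ± 0.12 (adjusted p = 0.75). The receptors FLT1, KDR and FLT4 averaged 1.92, 2.28 and 2.30, all under the array medians. ANGPTL4, a lipid-regulating hypoxia gene, was at -0.65 ± 0.18 in the mimic against the negative control (adjusted p = 0.090). Against mock it was at -0.35 ± 0.18 (adjusted p = 0.36).

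Around NDRG1, 0 of 7 measured family members and regulators passed in any comparison. In the mimic against the negative control, where NDRG1 was at -0.72, NDRG3 was at 0.07 ± 0.20 (adjusted p = 0.92). SGK1, a kinase that phosphorylates NDRG1 protein, was at 0.06 ± 0.075 (adjusted p = 0.75), with a 95% interval from -0.10 to 0.23. MYC, known as a repressor of NDRG1, was at 0.45 ± 0.17 (adjusted p = 0.24), with a 95% interval from 0.06 to 0.84. At an unadjusted p under 0.05 in limma stood 1 of the 7 in each of the 3 comparisons. This was MYC in the mimic against the negative control and GSK3B in both comparisons with mock. GSK3B was at -0.53 ± 0.15 in the mimic (adjusted p = 0.083) and -0.35 ± 0.15 in the negative control (adjusted p = 0.43) against mock. It was at -0.18 ± 0.15 in the mimic against the negative control (adjusted p = 0.62).

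Around DDIT4, 1 of 12 measured genes rose in the mimic against the negative control and 11 did not pass. At an unadjusted p under 0.05 in limma were 5 of the 12 in each mimic comparison and 2 in the negative control against mock. The gene that rose was SESN2, a sestrin that, like DDIT4, restrains mTORC1 under stress. SESN2 read 5.27, 5.15 and 5.88 on mock, 4.26, 4.86 and 4.86 on negative control and 6.32, 5.84 and 5.89 on mimic arrays. It rose by 1.36 ± 0.23 (SE, adjusted p = 0.014) against the negative control, with adjusted p = 0.060 without mimic 1, and was at 0.58 ± 0.23 against mock (adjusted p = 0.22). The negative control was below mock for SESN2 by -0.77 ± 0.23 (adjusted p = 0.22), with no overlap, whereas DDIT4 was higher there.

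DDIT3 (CHOP), a transcription factor of the unfolded protein response, fell in both small RNA groups against mock. It read 4.40, 4.11 and 4.59 on mock, 3.53, 3.66 and 3.18 on negative control and 3.28, 3.66 and 3.63 on mimic arrays, so that the small RNA groups overlapped each other and lay below mock. The change was -0.84 ± 0.16 (SE) in the mimic (adjusted p = 0.025) and -0.91 ± 0.16 in the negative control (adjusted p = 0.048). The first was lost without mock 1 or 3 or any mimic array, with adjusted p up to 0.096, and with the replicate number as a block (adjusted p = 0.060). The second was lost without any 1 of 8 arrays (all but mock 2), with adjusted p up to 0.18, and with the replicate number as a block (adjusted p = 0.12). ATF4, which induces DDIT3 and DDIT4 under amino acid and endoplasmic reticulum stress, differed by 0.04 ± 0.11 between mimic and mock (adjusted p = 0.91). In the mimic against the negative control ATF4 was at 0.27 ± 0.11 (adjusted p = 0.27). In the negative control against mock it was at -0.23 ± 0.11 (adjusted p = 0.50). The arrays did not overlap in these last comparisons. The mTORC1 genes MTOR (0.44 ± 0.16, adjusted p = 0.19) and TSC2 (0.29 ± 0.10, adjusted p = 0.18) did not pass in the mimic against mock. Against the negative control MTOR was at 0.41 ± 0.16 (limma adjusted p = 0.24) and TSC2 at 0.34 ± 0.10 (limma adjusted p = 0.13).

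Of the 9 measured genes of hypoxia-induced glucose use and acid balance, CA12 fell against both controls and no other passed. In the negative control against mock 0 of 9 passed in limma, with 3 at an unadjusted p under 0.05. In the mimic, 3 of the 9 were at an unadjusted p under 0.05 against the negative control and 2 against mock. CA12 is a membrane carbonic anhydrase that balances acid outside the cell. It read 5.82, 5.82 and 6.43 on mock, 5.96, 5.78 and 6.19 on negative control and 4.73, 4.85 and 4.81 on mimic arrays. All mimic arrays lay below all control arrays, and the control groups overlapped. The log2 change of CA12 was -1.18 ± 0.17 (SE) from the negative control (2.26-fold lower, adjusted p = 0.0066) and -1.22 ± 0.17 from mock (2.34-fold lower, adjusted p = 0.0055). These calls held without each array, with adjusted p up to 0.035 and 0.032. The 8 measured glycolytic enzymes did not pass, and 5 of the 8 had opposite signs against the controls. Their averages over the 9 arrays ran from 3.98 for TPI1, 4.30 for LDHA and 4.58 for GAPDH up to 8.16 for GPI. How well the features with low values read these genes was not tested. LDHA was at -0.31 ± 0.091 (adjusted p = 0.12) against the negative control and 0.07 ± 0.091 (adjusted p = 0.77) against mock. PGK1, a kinase of glycolysis, was at -0.07 ± 0.11 and 0.15 ± 0.11, and HK2, a hexokinase, at 0.12 ± 0.20 and -0.23 ± 0.20.

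Of 17 other measured hypoxia-induced genes, 1 fell against the negative control, and 0 passed in the mimic or the negative control against mock, where limma gave 2 and 1 at an unadjusted p under 0.05, against 5 in the mimic against the negative control. The gene that fell was KLF10, a zinc finger transcription factor induced by TGF-beta. It read 5.55, 5.55 and 5.69 on mock, 5.67, 5.83 and 6.14 on negative control and 5.31, 5.09 and 4.99 on mimic arrays. Its log2 change was -0.75 ± 0.13 (SE, adjusted p = 0.016), a call lost without mimic 2 or 3 (adjusted p up to 0.067) and in a fit on the 6 arrays compared (adjusted p = 0.060), and it was at -0.47 ± 0.13 against mock (adjusted p = 0.079, and 0.035 after a second quantile normalization). BNIP3, a mitophagy gene often used as a HIF readout, was at -0.19 ± 0.18 against the negative control and 0.08 ± 0.18 against mock. LOX, which crosslinks collagen, was at 0.28 ± 0.14 and 0.0053 ± 0.14.

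Of 6 measured genes reported to depend on HIF-2alpha in some cells, 1 fell in the mimic against each control. In each of these comparisons 2 were at an unadjusted p under 0.05 in limma. In the negative control against mock 0 passed, with 1 at an unadjusted p under 0.05. The gene that fell was MMP14, a membrane-bound metalloproteinase that cuts collagen. MMP14 read 4.98, 5.08 and 5.41 on mock, 5.10, 4.99 and 4.95 on negative control and 4.26, 4.33 and 4.36 on mimic arrays, all mimic arrays below all controls. Its log2 change was -0.69 ± 0.11 (SE) from the negative control (adjusted p = 0.013, and 0.054 without mimic 1) and -0.84 ± 0.11 from mock (adjusted p = 0.0052). CYBRD1, an iron reductase, was at -0.49 ± 0.14 against the negative control (adjusted p = 0.10, and 0.047 after a second quantile normalization) and CCND1, cyclin D1, at -0.19 ± 0.10 (adjusted p = 0.43). Against mock CYBRD1 was at -0.33 ± 0.14 (adjusted p = 0.25) and CCND1 at 0.08 ± 0.10 (adjusted p = 0.76). EPO averaged 2.92, not far above the array medians.

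**Figure D4:**
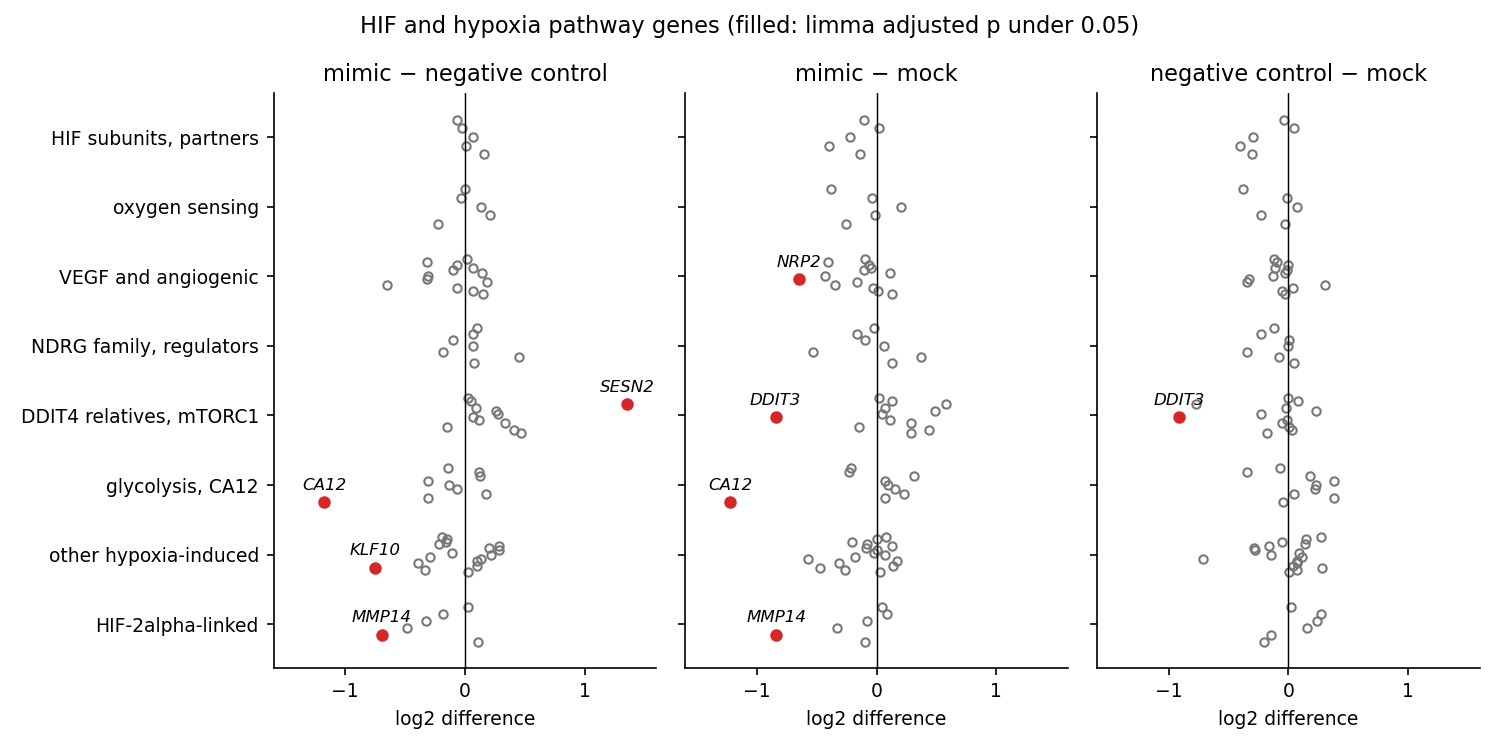
Log2 differences (horizontal axes) of the 74 measured genes of 8 HIF and hypoxia lists, without the 4 members, in 3 comparisons, each point being 1 gene. Filled red points passed limma at an adjusted p under 0.05 over 14884 genes and are named; CA12 and MMP14 are the genes that passed against both controls in the mimic.

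Promoter letters were set beside these calls as a description. Of the 74 genes, 58 had a sequence in the RefSeq promoter set used here, and 25 of the 58 (43.1%) held ACGTG. KLF10, which fell against the negative control, had no sequence in that set and is left out of these counts. Of these 25, 1 fell against the negative control and 24 did not pass, while of the 33 without ACGTG, 1 rose, 1 fell and 31 did not pass. The gene with ACGTG that fell was MMP14, with 1 match in the window printed above. CA12 held 1 GCGTG and no ACGTG. LDHA, with ACGTG in 3 places of the window printed above and GCGTG only in its other window, did not pass. The median differences from the negative control were 0.06 for genes with ACGTG and 0.03 for those without. Against mock, 1 of the 25 with ACGTG fell (MMP14) and 3 of the 33 without it (CA12, DDIT3 and NRP2), with medians of 0.06 and -0.10. When either ACGTG or GCGTG counted, 43 genes held a match and 15 held none. Then 2 of the 43 fell (CA12 and MMP14) and 1 of the 15 rose (SESN2) against the negative control, with medians of 0.05 and 0.03. In the mimic against mock 3 of the 43 (CA12, DDIT3 and MMP14) and 1 of the 15 (NRP2) fell, with medians of -0.07 and -0.04.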

How the data were processed

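Total RNA from 9 BT-549 samples, 3 per group by the labels' treatment, was read on Affymetrix Human Gene 2.0 ST arrays. The deposited table holds log2 values that the authors obtained by RMA, per the submitters' processing notes. For RMA, version and array definition: not given in the sources used here. In all, 53617 features were listed, with 0 missing values. Features were named through the gene ID of the platform annotation, looked up in a RefSeq table for GRCh38.p14, and 16098 had 1 symbol. For 779 genes with several features the brightest over all arrays was used, which left 14884 genes. No filter on signal was applied.

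Differences, SEs and p-values came from limma 3.58.1 in R 4.3.3 (lmFit, eBayes), two-sided, on all 9 arrays with 1 mean per group, 6 residual and 9.60 total degrees of freedom, and Benjamini-Hochberg adjustment per comparison. The code of the fit was run on simulated independent normal values. These lack the ties of the real arrays and any pairing between them, so nothing about the fit on the real arrays is read from that run.

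The members, gene lists, comparisons and alternatives were chosen with earlier results of these data known. Named genes were the members, all measured HIF subunit and oxygen-sensing genes, the called genes of the other lists (up to 5 per list and comparison), 4 genes of most similar pattern per member, and markers. Genes given beside them that did not pass were chosen after their values were seen. The alternatives were other normalizations, a signal filter, other variance and sample choices, the replicate number as a block and each array left out.

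To see whether replicate numbers pair samples, deviations from group means were correlated across genes between same-numbered arrays. This r was 0.15, 0.23 and 0.15 for negative control and mock, and -0.29 to -0.054 with mimic arrays. The only sign of pairing between negative control and mock thus came from the signals, and no label pairs these arrays. The main fit had no block, so its SEs and p-values for negative control against mock are unpaired. The replicate number entered only as an alternative. There DDIT3, the only listed gene called in that comparison, was lost (limma adjusted p = 0.12, and 0.18 on the 6 arrays compared).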

Additional observations from a re-analysis of the deposited data

How the results depend on the processing

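With 1 array left out, EPAS1 ranged from -1.36 to -1.02 against the negative control, from -1.58 to -1.39 in the mimic against mock and from -0.46 to -0.12 in the negative control against mock. The SD within groups, the measure used for the members, could hardly be exceeded by leaving out 1 of 3 arrays, and the block, the sample choice and the variance choice leave a difference as it is, so nothing about stability is read from it. Values near 0 changed sign: NDRG1 in the negative control against mock ranged from -0.07 to 0.16, and DDIT4 in the mimic against the negative control from -0.08 to 0.06.

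The number of pathway genes that changed was 2 to 5 against the negative control (2 without mimic 1), 2 to 5 in the mimic against mock (2 without mock 1 or 3, or mimic 2 or 3) and 0 to 1 in the negative control against mock with 1 array left out. For the last comparison it was also 0 with arrays centred on their medians, in a fit on the 6 arrays compared, with the replicate block, and with the replicate block on those 6 arrays, the last added after seeing the data. The gene concerned is DDIT3, which the block also removes from the mimic against mock. A second quantile normalization gave 5, 6 and 1. The replicate block gave 4 and 3 in the mimic comparisons, where the numbers are not shown to pair the samples. Over all genes, calls ranged with 1 array left out from 199 to 431 (473 with all) against the negative control, from 188 to 650 (580 with all) in the mimic against mock and from 21 to 112 (96 with all) in the negative control against mock. In the same order, the block gave 292, 346 and 61, the fit on the 6 arrays compared 251, 321 and 18, and the block on those 6 arrays 0, 5 and 0. Genes near the array medians have little signal over background.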

Other observations

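A pair of hypoxia-linked genes outside the lists, named after their values were seen, also differed between groups. STC1, stanniocalcin, a secreted hormone raised by hypoxia, averaged 8.14 ± 0.18 in mock, 8.11 ± 0.13 in negative control and 7.35 ± 0.13 in mimic (SD, n = 3 each). Its log2 change was -0.76 ± 0.12 (SE) from the negative control (limma adjusted p = 0.0096) and -0.78 ± 0.12 from mock (adjusted p = 0.0080), with adjusted p up to 0.048 and 0.043 when 1 array was left out.

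HIF1A-AS2, a transcript from the opposite strand of the HIF1A locus, averaged 4.51 ± 0.15, 3.74 ± 0.12 and 3.89 ± 0.15 (SD) in the same order. It fell in both small RNA groups, at -0.62 ± 0.11 in the mimic and -0.77 ± 0.11 in the negative control from mock (limma adjusted p = 0.018 each), and was at 0.15 ± 0.11 in the mimic against the negative control (adjusted p = 0.58). The first call was lost without mock 1 or 2 or mimic 2 or 3 (adjusted p up to 0.072). The second was lost without mock 1 or negative control 2 or 3 (adjusted p up to 0.094) and in fits on the 6 arrays compared, without the replicate block (0.083) and with it (0.094).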
